A study of Homo sapiens with 15 samples.

Results

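AP-1 and immediate early transcription factors were followed in A375 cells, a BRAF-mutant line established from a human melanoma, through 10 genes chosen by symbol: FOS, FOSB, FOSL1, FOSL2, JUN, JUNB, JUND, ATF3, MAF and EGR1. All 10 were listed in every library and passed the filter on low values, among 17360 gene symbols in all. RNA sequencing covered 15 libraries in 5 groups of 3. One experiment of 9 libraries held cells with the empty vector given vehicle, cells overexpressing VAV1 given vehicle, and cells overexpressing VAV1 given saracatinib. The other experiment, of 6 libraries, held untreated cells with the empty vector and untreated cells with RAC1 P29S. VAV1 is an exchange factor that loads small GTPases such as RAC1 with GTP, RAC1 P29S is an activated mutant found in melanoma, and saracatinib inhibits SRC family kinases. The labels give no dose, no exposure time, no promoter for the transgenes and no statement of whether a line is a clone or a pool. No empty vector cells received saracatinib, so every saracatinib value is from cells that carry VAV1. For the RAC1 P29S samples the titles and the genotype entry disagree (the latter says empty vector), and the titles were followed. The libraries of a group are called biological triplicates without saying how they were separated, so p-values measure the spread between these samples, which may be technical.

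Values are log2(normalized count + 1), and each library summed to 14443918 to 16262759 normalized counts with the log undone. The log2 level of VAV1 was 2.22 ± 0.30 (SD, n = 3) with the empty vector, 13.91 ± 0.04 in vehicle-treated VAV1 cells and 14.12 ± 0.03 with saracatinib, and it was not listed in the untreated table. That of RAC1 was 11.88 ± 0.02 in the untreated control and 14.93 ± 0.03 with RAC1 P29S. No group held cells with raised unmutated RAC1, so the mutation and the higher RAC1 level cannot be told apart. Of 9 melanoma and melanocyte markers, 7 were listed in the experiment with vehicle and 9 in the other. The lineage factors SOX10 and MITF were abundant (mean log2 levels of at least 10.80 and 8.35), but the pigment genes MLANA (at most 3.67) and TYRP1 (at most 3.70) were near the floor and TYR and DCT were listed only in the untreated table. The summed markers were lower where the transgenes were present, at 8995 to 9515 normalized counts with the empty vector and vehicle, 2998 to 3133 with VAV1, 3589 to 3731 with saracatinib, 11230 to 12248 in untreated controls and 5407 to 5815 with RAC1 P29S. SOX10 made up most of this sum, and the list did not move as one: of 5 genes tested, 3 were lower and 1 higher with each transgene. SOX10 had log2 differences of -2.07 ± 0.04 (SE) with VAV1 and -1.10 ± 0.05 with RAC1 P29S (limma adjusted p = 4.73e-13 and 1.42e-07), while MITF rose by 1.57 ± 0.11 and 1.23 ± 0.11 (limma adjusted p = 1.11e-07 and 1.86e-05). Summed epithelial markers were higher with the transgenes, 5886 to 6672, 12924 to 13895, 7962 to 8382, 2920 to 3337 and 6041 to 6745 in the same order, with 2 of 5 genes (the keratins KRT8 and KRT18) at a mean count of at least 10. Haematopoietic, fibroblast and endothelial marker sums were at most 493.3 in every library. These changes moved with those of the members below, and their part in them was not tested. In bulk RNA, fewer cells of a kind and less RNA per cell cannot be told apart.

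AP-1 is a dimer of basic leucine zipper proteins. A JUN family subunit (JUN, JUNB, JUND) pairs with itself or with a FOS family subunit (FOS, FOSB, FOSL1, FOSL2), and FOS family proteins cannot pair among themselves. FOS, FOSB, JUN, JUNB, ATF3 and EGR1 are immediate early genes, transcribed within minutes of a growth or stress signal without new protein synthesis, whereas FOSL1 protein is stabilized by sustained ERK activity. ATF3 and MAF are related leucine zipper factors, and EGR1 is a zinc finger factor.

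Several of these genes are known to carry regulatory elements close to their start sites that bind the same class of factors, so the sequences around such motifs are shown for 7 members: JUN, ATF3, MAF and JUND for their full 8-base motif, EGR1 for its CArG boxes, and FOS and FOSB as the FOS family genes that fell with both transgenes. RefSeq promoters of build GRCh38.p14 were available for 9 of the 10 members (not FOSL1), and the 250 bases before each start were searched on both strands. The motifs were TGACTCA (the AP-1 site), TGACGTCA (the cyclic AMP response element), TGACATCA (the variant bound by JUN and ATF2), TGACG (contained in TGACGTCA, so the matches overlap) and the CArG box, the site of serum response factor. Sequences are read 5′ to 3′ on the strand of the gene, and capitals mark a motif or, in EGR1, also CGTCA, which is TGACG on the other strand.
JUN, minus strand, chr1:58784096-58784125: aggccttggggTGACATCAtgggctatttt
ATF3, plus strand, chr1:212565273-212565302: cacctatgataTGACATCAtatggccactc
MAF, minus strand, chr16:79600764-79600793: tcatttggaccTGACGTCAcgagtgctata
JUND, minus strand, chr19:18281804-18281833: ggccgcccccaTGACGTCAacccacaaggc
FOS, plus strand, chr14:75278752-75278781: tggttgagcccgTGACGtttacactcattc
FOSB, plus strand, chr19:45467924-45467953: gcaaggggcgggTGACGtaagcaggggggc
EGR1, plus strand, chr5:138465229-138465478: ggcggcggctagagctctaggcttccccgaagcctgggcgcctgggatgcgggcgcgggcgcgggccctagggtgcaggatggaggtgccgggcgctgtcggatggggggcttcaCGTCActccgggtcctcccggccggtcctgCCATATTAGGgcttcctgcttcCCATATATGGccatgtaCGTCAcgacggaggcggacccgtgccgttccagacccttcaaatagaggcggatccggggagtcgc
TGACATCA lay at bases -67 to -60 of JUN and -123 to -116 of ATF3, counted from the RefSeq start. The JUN site falls inside the GENCODE span of JUN given below, as RefSeq and GENCODE place its start differently. Of 35116 promoters, 2.38% held it. TGACGTCA lay at -45 to -38 of MAF and -200 to -193 of JUND, and 1.65% of promoters held it. Within these 250 bases, FOS, FOSB, FOSL2 and JUNB held only the shorter TGACG, found in 21.2% of promoters. The sites of FOSL2 and JUNB are not printed. The whole FOSL2 window, with its TGACG matches, lies inside the GENCODE span of FOSL2 given below. Bases further from the start were not searched, so a CArG box or other motif there would be missed. EGR1 held a CArG box at -105 to -96 and another at -83 to -74, and 1.16% of promoters held at least one. It also held TGACG on the other strand at -135 to -131 and -66 to -62. TGACTCA was in none of the 9 windows and in 4.203% of all promoters. These matches describe letters and no binding was measured.

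With vehicle, all 10 members passed the test in VAV1 cells, 5 higher (FOSL1, FOSL2, JUN, JUND, ATF3) and 5 lower (FOS, FOSB, JUNB, MAF, EGR1), where 43.7% of the 14410 tested genes passed, 23.6% higher and 20.1% lower. The 3 libraries of each group did not overlap for any member, which held for 52.7% of tested genes. The change exceeded 2-fold for 7 members (FOS, FOSB, FOSL2, JUN, ATF3, MAF, EGR1), as for 10.2% of tested genes. RAC1 P29S gave 9 calls in 10, 4 higher (FOSL1, FOSL2, JUN, ATF3) and 5 lower (FOS, FOSB, JUNB, MAF, EGR1), where 31.1% of 14036 tested genes passed, 15.6% higher and 15.5% lower. The same 9 had no overlap between libraries (45.0% of tested genes), and 6 (FOS, FOSB, FOSL2, JUN, ATF3, MAF) changed more than 2-fold (7.53%). Each of those 9 members also passed with VAV1 in the same direction. Over all 13810 genes tested in both experiments, 2917 passed in both with the same direction, which is 67.4% of the RAC1 P29S calls and 47.8% of the VAV1 calls. The 2 comparisons share no library. A gene passed when limma's adjusted p was under 0.05, and values after ± are SE for differences and SD for levels.

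**Figure D1:**
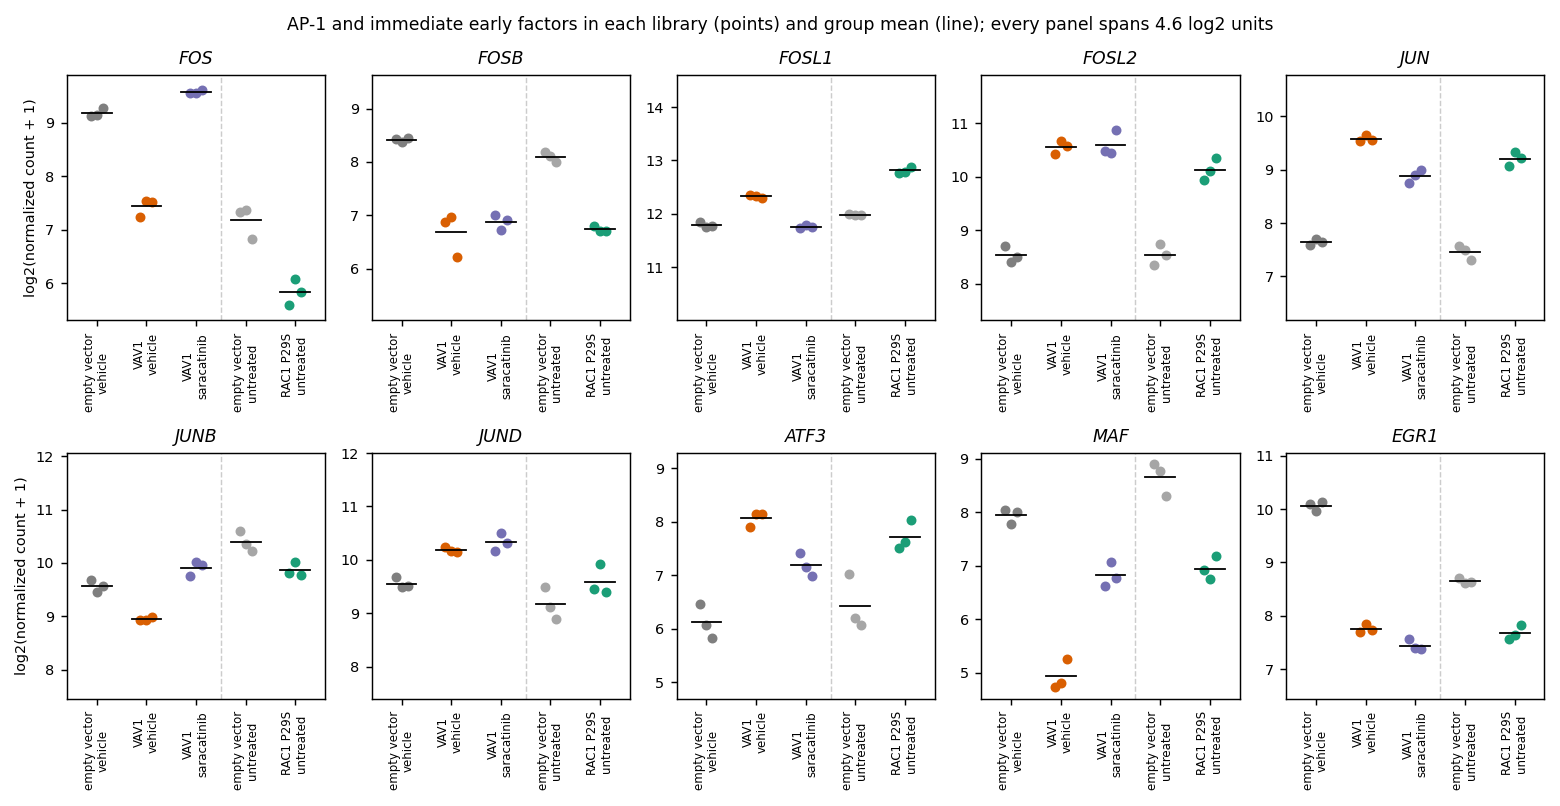
Log2(normalized count + 1) of the 10 members (1 panel each) in the 15 libraries, with points for libraries and a line for the group mean; the dashed line separates the experiments, which were normalized separately, and each panel spans the same width of 4.6 log2 units. FOS fell from 9.13 to 9.29 in the empty vector libraries to 7.24 to 7.55 with VAV1 and stood at 9.56 to 9.61 with saracatinib, while FOSL2 stayed above 10.4 with VAV1 whether or not saracatinib was given.

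FOS, the founding member of its family (chr14:75278774-75282230, plus strand), had log2 values of 9.13, 9.16 and 9.29 with the empty vector and vehicle, 7.24, 7.55 and 7.53 with VAV1 and vehicle, and 9.56, 9.57 and 9.61 with saracatinib. The VAV1 vehicle libraries were lowest and the saracatinib libraries highest, with no overlap. VAV1 lowered FOS by a log2 difference of -1.75 ± 0.09 (limma adjusted p = 6.12e-09), and saracatinib raised it by 2.14 ± 0.09 over vehicle (4.41-fold, limma adjusted p = 1.80e-09). Untreated controls held 7.34, 7.37 and 6.84 and RAC1 P29S cells 5.60, 6.07 and 5.83, again without overlap, a log2 difference of -1.35 ± 0.20 (limma adjusted p = 5.42e-04). FOSB, a relative of FOS (chr19:45467995-45475179, plus strand), had log2 values of 8.43, 8.37 and 8.45 with the empty vector and vehicle, 6.88, 6.98 and 6.22 with VAV1, and 7.003, 6.72 and 6.92 with saracatinib. Like FOS, FOSB passed with VAV1 (-1.72 ± 0.18 on the log2 scale, limma adjusted p = 3.85e-06). Unlike those of FOS, its saracatinib and vehicle libraries overlapped, and the log2 difference was 0.19 ± 0.18 (limma adjusted p = 0.440, 95% interval -0.19 to 0.57). Untreated libraries gave FOSB log2 values of 8.19, 8.11 and 8.002 in controls and 6.80, 6.71 and 6.70 with RAC1 P29S, a difference of -1.36 ± 0.12 (limma adjusted p = 1.12e-05). FOSB overlaps ERCC1, a DNA repair gene on the other strand, and whether counting used strand is not given in the sources used here. ERCC1 itself had a log2 difference of -0.89 ± 0.05 with VAV1 (limma adjusted p = 2.24e-08) and -0.34 ± 0.06 with RAC1 P29S (limma adjusted p = 0.00255), and its part in the FOSB values was not tested.

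FOSL1, the FRA-1 gene (chr11:65892049-65900573, minus strand), had log2 values of 11.84, 11.76 and 11.78 with the empty vector and vehicle, 12.36, 12.34 and 12.30 with VAV1 and 11.74, 11.79 and 11.75 with saracatinib. The VAV1 vehicle libraries stood above both of the others. VAV1 raised FOSL1 by 0.54 ± 0.04 on the log2 scale (1.45-fold, limma adjusted p = 2.56e-07), and saracatinib lowered it by 0.57 (a log2 difference of -0.57 ± 0.04, limma adjusted p = 2.67e-07). With saracatinib it was -0.03 ± 0.04 from the empty vector level (95% interval -0.12 to 0.06), and those libraries overlapped. In untreated cells it was 12.002, 11.97 and 11.97 with the empty vector and 12.77, 12.79 and 12.87 with RAC1 P29S, a rise of 0.83 ± 0.04 (1.78-fold, limma adjusted p = 2.94e-07). FOSL2, the FRA-2 gene (chr2:28392448-28417312, plus strand), had log2 values of 8.70, 8.41 and 8.51 with the empty vector, 10.42, 10.66 and 10.58 with VAV1 and 10.48, 10.45 and 10.87 with saracatinib. Both VAV1 groups stood above the controls and overlapped each other. FOSL2 rose by 2.01 ± 0.11 with VAV1 (4.04-fold, limma adjusted p = 1.56e-08) and differed by 0.05 ± 0.11 between saracatinib and vehicle (limma adjusted p = 0.779, 95% interval -0.20 to 0.29). Untreated FOSL2 values were 8.35, 8.74 and 8.54 in controls and 9.93, 10.10 and 10.35 with RAC1 P29S, a rise of 1.59 ± 0.12 (limma adjusted p = 6.16e-06). FOSL2 overlaps 2 other genes in GENCODE, so its reads could be split by the counting and its level is uncertain to that extent.

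JUN, the c-Jun gene (chr1:58780788-58784327, minus strand, 1 exon), had log2 values of 7.59, 7.70 and 7.65 with the empty vector and vehicle, 9.53, 9.64 and 9.56 with VAV1 and 8.75, 8.90 and 8.99 with saracatinib. The 3 groups did not overlap and saracatinib was between the other two. VAV1 raised JUN by 1.93 ± 0.09 (3.82-fold, limma adjusted p = 8.63e-10), and saracatinib lowered it by 0.70 (a log2 difference of -0.70 ± 0.09, limma adjusted p = 3.01e-05), so it was still 1.24 ± 0.09 above the empty vector level (limma adjusted p = 1.15e-07). In untreated controls JUN was 7.57, 7.50 and 7.32, and with RAC1 P29S 9.07, 9.33 and 9.21, a rise of 1.74 ± 0.11 (3.34-fold, limma adjusted p = 1.14e-06). JUNB, often an antagonist of JUN (chr19:12791496-12793315, plus strand, 1 exon), had log2 values of 9.69, 9.45 and 9.58 with the empty vector, 8.93, 8.94 and 8.98 with VAV1 and 9.75, 10.02 and 9.97 with saracatinib. VAV1 libraries were lowest and saracatinib libraries highest. The VAV1 difference was -0.62 ± 0.08 (limma adjusted p = 5.21e-05), and saracatinib raised JUNB by 0.96 ± 0.08 (1.95-fold, limma adjusted p = 1.28e-06) to 0.34 ± 0.08 above the empty vector (limma adjusted p = 0.00501). Untreated JUNB was 10.59, 10.35 and 10.22 in controls and 9.81, 10.02 and 9.78 with RAC1 P29S, a difference of -0.52 ± 0.10 (limma adjusted p = 0.00296). JUNB overlaps HOOK2 on the other strand, which rose with RAC1 P29S by 1.15 ± 0.21 (limma adjusted p = 0.00242), and its part in the JUNB values was not tested. JUND, the steadily expressed family member (chr19:18279760-18281622, minus strand, 1 exon), had log2 values of 9.67, 9.48 and 9.51 with the empty vector, 10.24, 10.16 and 10.14 with VAV1 and 10.16, 10.51 and 10.31 with saracatinib. VAV1 raised JUND by 0.62 ± 0.08 (1.54-fold, limma adjusted p = 5.24e-05), and the saracatinib libraries overlapped vehicle (0.15 ± 0.08, limma adjusted p = 0.202, 95% interval -0.04 to 0.33). In the untreated experiment JUND was 9.49, 9.12 and 8.90 in controls and 9.45, 9.92 and 9.40 with RAC1 P29S, which overlapped. The difference was 0.42 ± 0.17 (limma adjusted p = 0.0858, 95% interval 0.05 to 0.80) and passed without control library 1 (limma adjusted p = 0.0227) and with all 15 libraries in the fit (limma adjusted p = 0.0297). It did not pass in 10 of 11 alternative settings, nor in 5 of 6 fits with 1 library left out. In those 6 fits it ranged from 0.26 to 0.58, with limma adjusted p up to 0.254.

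ATF3, a stress-induced factor that pairs with JUN (chr1:212565334-212620777, plus strand), had log2 values of 6.47, 6.08 and 5.83 with the empty vector and vehicle, 7.90, 8.15 and 8.14 with VAV1 and 7.42, 7.15 and 6.99 with saracatinib. The VAV1 vehicle libraries stood highest and the empty vector lowest, with no overlap. VAV1 raised ATF3 by 1.94 ± 0.17 (3.84-fold, limma adjusted p = 1.01e-06) and saracatinib lowered it by 0.88 (a log2 difference of -0.88 ± 0.17, limma adjusted p = 0.00137). In untreated cells ATF3 was 7.02, 6.21 and 6.07 with the empty vector and 7.51, 7.62 and 8.03 with RAC1 P29S, a rise of 1.29 ± 0.25 (limma adjusted p = 0.00315). MAF, a large zipper factor outside the FOS and JUN families (chr16:79585843-79600714, minus strand), had log2 values of 8.04, 7.78 and 8.003 with the empty vector, 4.72, 4.80 and 5.26 with VAV1 and 6.61, 7.07 and 6.78 with saracatinib. The 3 groups did not overlap. VAV1 lowered MAF by 3.01 (a log2 difference of -3.01 ± 0.18, 8.07-fold lower, limma adjusted p = 2.16e-08), and saracatinib raised it by 1.89 ± 0.18 (3.71-fold, limma adjusted p = 3.70e-06), leaving it -1.12 ± 0.18 from the empty vector (limma adjusted p = 2.91e-04). With VAV1 and vehicle MAF was low, at 25.4 to 37.4 normalized counts. In alternative settings its VAV1 difference ranged from -3.04 to -2.52. Untreated MAF was 8.90, 8.78 and 8.30 in controls and 6.92, 6.75 and 7.18 with RAC1 P29S, a difference of -1.71 ± 0.17 (limma adjusted p = 3.66e-05).

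EGR1, a zinc finger factor of the serum response (chr5:138465490-138469315, plus strand), had log2 values of 10.10, 9.96 and 10.12 with the empty vector and vehicle, 7.69, 7.86 and 7.74 with VAV1, and 7.57, 7.39 and 7.38 with saracatinib. Both VAV1 groups were far below the controls. VAV1 lowered EGR1 by 2.30 (a log2 difference of -2.30 ± 0.09, 4.91-fold lower, limma adjusted p = 3.56e-10), and with saracatinib it was -2.61 ± 0.09 from the empty vector (6.12-fold lower, limma adjusted p = 1.49e-10). Between saracatinib and vehicle the difference was -0.32 ± 0.09 (limma adjusted p = 0.0167), a call lost without VAV1 vehicle library 2 (limma adjusted p = 0.0620), saracatinib library 2 (limma adjusted p = 0.0515) or saracatinib library 3 (limma adjusted p = 0.0558). Untreated EGR1 was 8.70, 8.62 and 8.64 in controls and 7.56, 7.64 and 7.82 with RAC1 P29S, a difference of -0.98 ± 0.10 (1.97-fold lower, limma adjusted p = 4.89e-05). FOS and EGR1, both serum response genes, had opposite signs under saracatinib against vehicle in the same libraries, at log2 differences of 2.14 and -0.32.

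Under saracatinib in VAV1 cells, 7 of the 10 members passed against vehicle, 3 higher (FOS, JUNB, MAF) and 4 lower (FOSL1, JUN, ATF3, EGR1), where 37.3% of tested genes passed, 18.3% higher and 19.1% lower, and the same 7 had no overlap between libraries (49.4% of tested genes). FOS and MAF changed more than 2-fold, as did 5.21% of tested genes. Against the empty vector with vehicle, 9 of 10 still passed in saracatinib-treated VAV1 cells, 6 higher (FOS, FOSL2, JUN, JUNB, JUND, ATF3) and 3 lower (FOSB, MAF, EGR1), where 43.4% of genes passed, 22.4% higher and 21.0% lower. Those 9 had no overlap (52.8% of tested genes), and 6 (FOSB, FOSL2, JUN, ATF3, MAF, EGR1) differed more than 2-fold (8.78%). FOS lay 0.39 ± 0.09 above the empty vector level on the log2 scale (limma adjusted p = 0.00456), FOSL2 2.06 ± 0.11 above (limma adjusted p = 1.93e-08) and FOSB -1.54 ± 0.18 from it (limma adjusted p = 1.37e-05). JUND was 0.77 ± 0.08 (limma adjusted p = 9.19e-06) and ATF3 1.06 ± 0.17 (limma adjusted p = 2.73e-04) above it. These comparisons share libraries: the VAV1 vehicle libraries enter both the VAV1 and the saracatinib values, so opposite signs between them are not independent. Tested against a fold of 1.5 in place of 0, limma called FOS, JUNB and MAF alone under saracatinib against vehicle, and FOSL1, JUNB and JUND lost their VAV1 calls, JUNB and ATF3 their RAC1 P29S calls, and FOS, JUNB, JUND, ATF3 and MAF their calls with saracatinib against the empty vector.

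**Figure D2:**
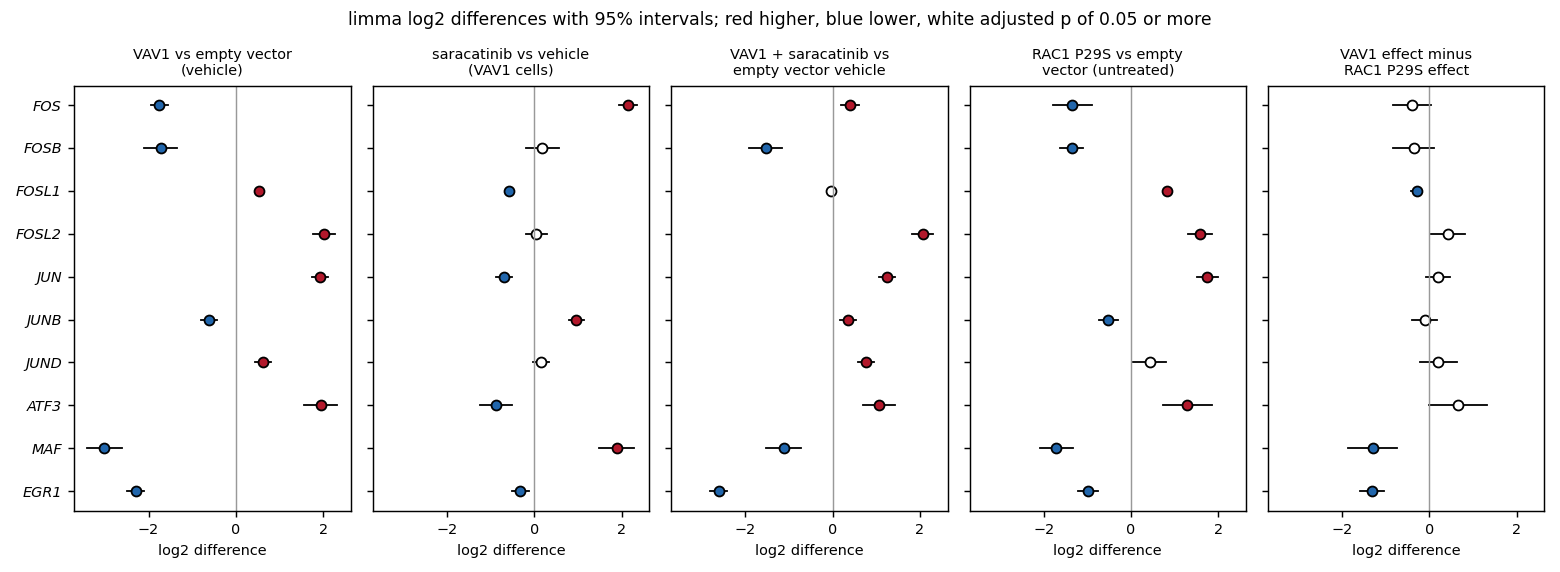
Limma log2 differences of the 10 members with 95% intervals in the 4 comparisons and in the VAV1 effect minus the RAC1 P29S effect; red is higher and blue lower at adjusted p under 0.05, and white did not pass. FOSL2, FOSB and JUND are white under saracatinib against vehicle, FOSL1 is white against the empty vector, and in the last panel FOSL1, MAF and EGR1 are blue.

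Which subunit held most of each family was compared per kb of principal transcript, on the linear scale, so that levels of different genes can be set side by side. FOSL1 held the greatest part of the FOS family level in all 5 groups, from 77.1% ± 1.51 (SD, n = 3) with saracatinib to 95.1% ± 0.38 with RAC1 P29S. With vehicle, FOS held 10.6% ± 0.72 in empty vector cells and 2.35% ± 0.29 in VAV1 cells, while FOSL2 held 2.17% ± 0.17 and 6.56% ± 0.58. With saracatinib FOS held 13.1% ± 0.18, FOSL2 8.62% ± 1.35 and FOSB 1.15% ± 0.13, so the shares of FOS and of FOSL2 were both above those with the empty vector. RAC1 P29S brought FOS from 2.58% ± 0.48 to 0.579% ± 0.098 and FOSL2 from 2.13% ± 0.30 to 3.70% ± 0.40. The FOS family total went from 2548 ± 66 to 3424 ± 67 normalized counts per kb with VAV1 and was 2702 ± 48 with saracatinib, and it went from 2619 ± 39 to 4534 ± 185 with RAC1 P29S.

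In the JUN family JUN went from 6.44% ± 0.66 of the level with the empty vector to 19.5% ± 0.90 with VAV1, and JUNB from 47.6% ± 0.96 to 24.4% ± 0.78. JUND held 46.0% ± 0.71 and then 56.1% ± 1.36, the greatest part with VAV1. With saracatinib JUN held 9.86% ± 0.70, JUNB 39.2% ± 0.84 and JUND 51.0% ± 1.53. With RAC1 P29S JUN went from 4.54% ± 0.33 to 15.2% ± 1.12, JUNB from 67.3% ± 1.33 to 47.0% ± 1.76 and JUND from 28.2% ± 1.60 to 37.8% ± 2.61. JUNB remained the greatest part in the untreated experiment. The JUN family total was 879 ± 59 with the empty vector, 1110 ± 15 with VAV1 and 1356 ± 138 with saracatinib, and 1103 ± 167 and 1101 ± 147 in the untreated experiment, where the totals overlapped. No test was run on the shares. Without division by length FOSL2 held 7.66% with the empty vector, 21.7% with VAV1 and 26.3% with saracatinib, and JUN 11.7%, 31.6% and 17.3%, with the same order between groups. The order of JUN and JUNB with VAV1 depended on length, as JUNB then held 20.4%, below JUN. So did that of FOS and FOSL2 with saracatinib, as FOS then held 12.9%, below FOSL2. With the empty vector and vehicle, FOSL2 then stood above FOSB (7.02%), and per kb below it. In untreated controls FOSL2 (7.74%) then stood above FOS (3.02%) and FOSB (5.66%), and per kb below both. FOSL1 then held 58.8% with saracatinib, still the greatest part of its family. The 2 experiments were normalized separately, and their control levels differed for several members (FOS 9.19 and 7.18, EGR1 10.06 and 8.65, JUNB 9.57 and 10.39 on the log2 scale), so shares are read within an experiment.

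**Figure D3:**
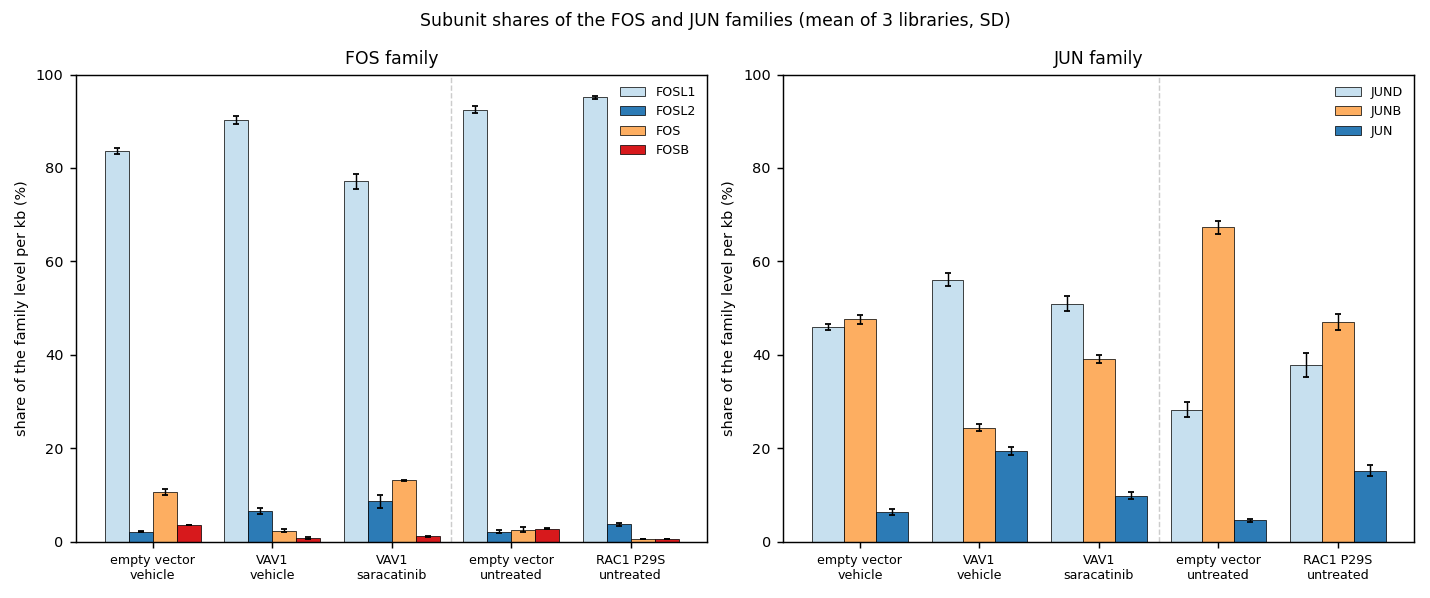
Share of the FOS family (left) and JUN family (right) level per kb held by each subunit, as mean and SD of 3 libraries per group, with the y axis in percent from 0 to 100; the dashed line separates the experiments. The FOSL1 mean is 77.1% or more in every group, and the JUN share goes from 6.44% to 19.5% with VAV1 and from 4.54% to 15.2% with RAC1 P29S.

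Per kb, FOSL1 was the most abundant of the 10 members in each group, at 2131 normalized counts per kb with the empty vector and vehicle, 3091 with VAV1, 2083 with saracatinib, 2423 in untreated controls and 4312 with RAC1 P29S. The lowest were ATF3 (34.4) with the empty vector and vehicle, MAF (11.3) with VAV1, FOSB (31.1) with saracatinib, ATF3 (43.9) in untreated controls and FOS (26.2) with RAC1 P29S. With RAC1 P29S, FOS (22.0 to 30.7) and FOSB (27.3 to 29.3) overlapped. With VAV1 and vehicle, JUN (209 to 225) and FOSL2 (204 to 241) overlapped.

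The VAV1 and RAC1 P29S effects were compared directly as a difference of the 2 effects. Of 10 members, 3 differed, each with the VAV1 effect below the RAC1 P29S effect, where 15.8% of the 13810 genes tested in both experiments passed (8.14% higher and 7.70% lower). MAF and EGR1 differed more than 2-fold, as did 2.56% of those genes. In alternative settings the log2 difference of MAF ranged from -1.34 to -0.918, under 2-fold at its smallest. That of EGR1 ranged from -1.41 to -1.29. The EGR1 difference was -1.31 ± 0.13 (limma adjusted p = 3.42e-06), as EGR1 was -2.30 with VAV1 and -0.98 with RAC1 P29S. Its mean log2 level was close in the transgene groups, 7.76 with VAV1 and vehicle and 7.67 with RAC1 P29S. The empty vector levels stood apart, at 10.06 with vehicle and 8.65 untreated, in experiments that were normalized separately. The MAF difference was -1.30 ± 0.26 (limma adjusted p = 0.00289), and that of FOSL1, which rose less with VAV1, was -0.29 ± 0.06 (limma adjusted p = 0.00176). The other 7 did not pass, with log2 differences from -0.40 ± 0.20 for FOS (limma adjusted p = 0.202) to 0.65 ± 0.32 for ATF3 (limma adjusted p = 0.184), and FOSL2 at 0.43 ± 0.18 (limma adjusted p = 0.127). FOSB stood at -0.36 ± 0.22, JUN at 0.19 ± 0.13, JUNB at -0.10 ± 0.14 and JUND at 0.20 ± 0.20 (limma adjusted p = 0.304, 0.356, 0.663 and 0.549). Against a fold of 1.5, EGR1 alone still passed.

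Other genes of the same signalling were read from 7 lists. Over all tested genes, 43.7% passed with VAV1 (23.6% higher and 20.1% lower). With saracatinib against vehicle 37.3% passed (18.3% and 19.1%), and with RAC1 P29S 31.1% (15.6% and 15.5%). Median log2 differences over all tested genes were 0.02 with VAV1, -0.01 with saracatinib and -0.0043 with RAC1 P29S. Among ERK output and feedback genes, 12 of 15 tested were lower and 2 higher with VAV1 (median log2 difference -0.63). The lower ones included the RTK inhibitors SPRY2 (-1.82 ± 0.05) and SPRY4 (-2.29 ± 0.07). With RAC1 P29S 11 were lower and 1 higher (median -0.40), and with saracatinib 9 were higher and 2 lower (median 0.41), including DUSP4, an ERK phosphatase, at 1.02. Of 20 other immediate early genes tested, 11 were lower and 6 higher with VAV1 (median -0.26). The nuclear receptor NR4A1 (-1.61 ± 0.09) was lower, as FOS was, and CYR61 (1.60 ± 0.05), a matrix protein and YAP target, was higher. Saracatinib gave 11 higher, with NR4A1 at 1.73 ± 0.09, and 3 lower, with CYR61 at -1.91 (median 0.35). RAC1 P29S gave 8 lower and 6 higher of 21 tested, with NR4A1 at -1.38 and CYR61 at 1.79 (median -0.21).

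Among AP-1 targets, 12 of 22 tested were higher and 5 lower with VAV1 (median 0.54) and 15 of 21 higher and 4 lower with RAC1 P29S (median 0.96). The growth factor HBEGF rose by 2.88 ± 0.11 with VAV1, the cytokine IL11 by 1.34 with RAC1 P29S, and the matrix protein TNC had log2 differences of -2.72 ± 0.06 and -1.44 in that order. With saracatinib the list was split, 7 higher and 6 lower (median 0.15), with the collagenase MMP1 at 2.72 ± 0.10. Of 13 zipper partners tested, VAV1 raised 3 and lowered 1 (median 0.05): JDP2, a dimer partner of JUN, rose by 1.44 ± 0.17, and saracatinib took it to -1.78 ± 0.17 against vehicle, where 3 rose and 1 fell (median 0.06). RAC1 P29S raised 4 partners and lowered 2 (median -0.01), with JDP2 at 1.11 ± 0.21. ATF4 stress genes were 9 higher and 1 lower of 10 with VAV1 (median 0.64), 1 higher and 6 lower with saracatinib (median -0.64) and 3 and 3 with RAC1 P29S (median 0.04). JNK and p38 genes were 6 higher and 4 lower of 16 with VAV1 (median 0.02), among them GADD45B, an activator of stress kinases, at 1.84 ± 0.13. They were 3 higher and 5 lower with saracatinib (median -0.03) and 2 and 3 of 15 with RAC1 P29S (median -0.01). The SRF and TCF list, which holds serum response factor and its partners, had 2 higher and 1 lower of 11 with VAV1 (median -0.06), 1 and 3 with saracatinib (median -0.02) and 1 and 1 of 10 with RAC1 P29S (median -0.01). With VAV1, smaller shares of the zipper partners and of the SRF and TCF genes passed than of all tested genes (43.7%). The share of JNK and p38 genes that passed with RAC1 P29S was close to that of all tested genes (31.1%), and that of SRF and TCF genes was smaller. With saracatinib, neither the zipper partners nor the SRF and TCF genes passed in a larger share than all tested genes (37.3%). These lists were counted and not tested as sets.

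**Figure D4:**
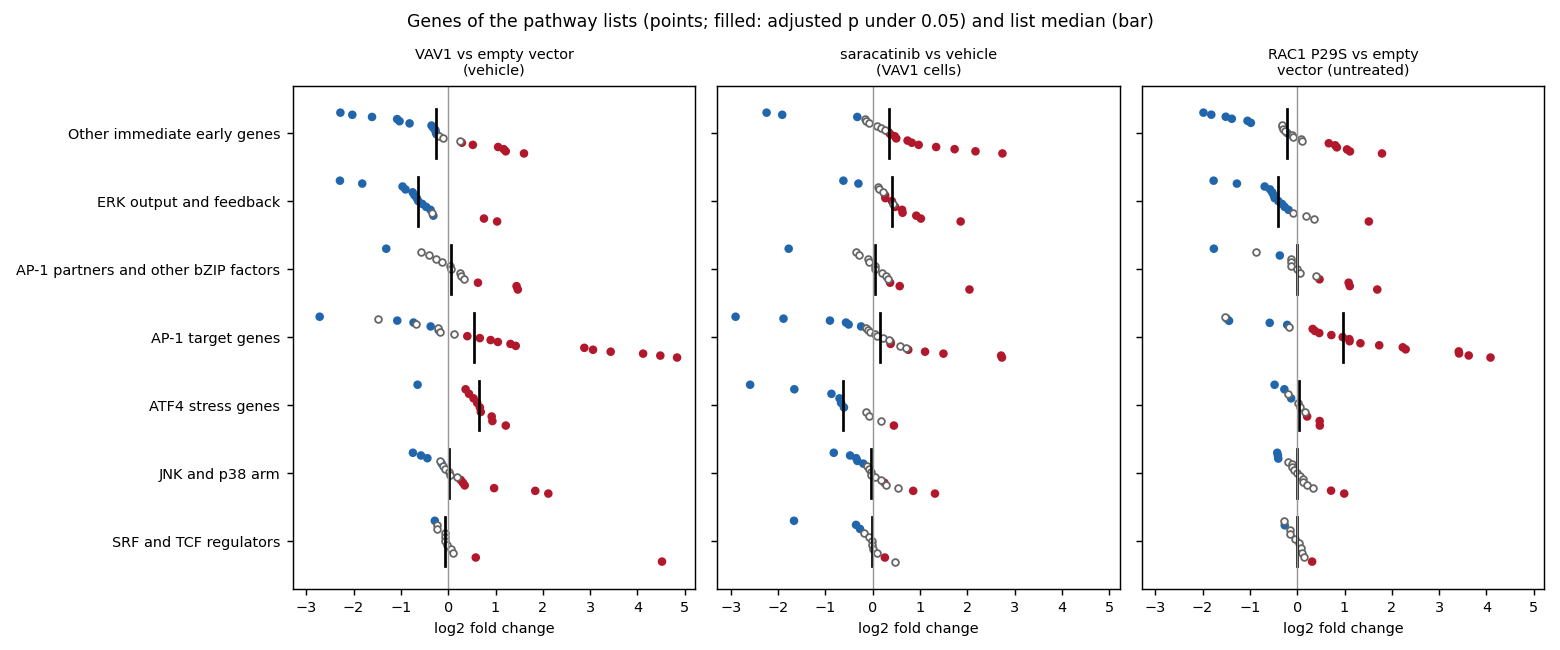
Log2 fold change of the genes in the 7 lists (points, filled at limma adjusted p under 0.05) and their median (bar) with VAV1, with saracatinib in VAV1 cells and with RAC1 P29S. ERK output and feedback genes lie mostly below 0 with VAV1 and with RAC1 P29S (12 and 11 lower of 15) and mostly above 0 with saracatinib (9 higher).

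Likeness to each member was measured by Pearson's r over the 15 libraries, after subtracting the mean of the empty vector libraries of the same experiment, as a description. For each member the search covered 2377 or 2378 of the 13810 genes tested in both experiments, those whose group means so centred spanned at least 1 on the log2 scale, and "most like" holds within them. FOS was most like ABHD17C (0.988), SEMA3B (0.985) and the immediate early gene NR4A1 (0.979). FOSL1 was most like GDA (0.993), PDLIM1 and AMOTL2, FOSL2 like CITED2 (0.986), HBE1 and MMP3 (0.983), and JUN like KRT81 (0.993), FSTL1 and PKP2. FOSB was most like B3GAT1 (0.990), TFAP2B and STK32B, JUNB like S100A6 (0.957), FBXO32 and VGF, and JUND like DUSP1 (0.920), SPHK1 and CDH11. ATF3 was most like the stress gene GADD45B (0.947), PRKCE and NFASC, MAF like FXYD3 (0.984), CTSZ and GBP2, and EGR1 like LRIG3 (0.995), COL4A2 and SLITRK6. Among the members themselves, FOS went with JUNB (0.953), JUN with ATF3 (0.928) and FOSL2 with JUN (0.918), while FOSB and FOSL2 ran opposite (-0.961). These r values share libraries and the group structure, and carry no test.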

How the data were processed

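RNA from 15 A375 libraries in 5 groups of 3 was sequenced after an Illumina TruSeq preparation, per the labels' protocols. The deposited files give, per library, a log2 value per gene symbol, which the authors made from normalized counts (from the values, log2 of the count plus 1). kallisto, DESeq2 and GRCh38 are named per the submitters' processing notes, without versions or settings. Whole reads were not recovered (46.98% to 53.44% of low values at whole multiples of the best step, within 0.1 of a step, where 20% would by chance), so depth in reads is unknown.

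limma 3.58.1 in R 4.3.3 (trend and robust empirical Bayes, 1 mean per group, two-sided, Benjamini-Hochberg over all tested genes) was fitted to 9, 6 or all 15 libraries (the last for the difference of effects). The filter kept genes that reached a normalized count of 10 in 3 or more libraries. The code was tested on simulated data. The 10 members and the 7 lists were chosen with earlier results of these data known. Named genes are the members, VAV1, RAC1, up to 4 genes per list with the smallest adjusted p among those that passed, and the 3 genes most like each member. Some genes that the rule names are not reported here. ERCC1 and HOOK2, which overlap members, were named after their values were seen. Coordinates are from GENCODE 29 (GRCh38) and sequences from RefSeq. Alternatives were other scalings, filters, pseudocounts (4 and 16), fits, lengths, a test against a fold of 1.5, a replicate block and leaving out each library.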

Additional observations from a re-analysis of the deposited data

Results flagged for a closer look

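The effects of VAV1 and RAC1 P29S differed by a direct test for 3 members, each as the log2 VAV1 effect minus the log2 RAC1 P29S effect. EGR1 differed by -1.31 (limma adjusted p = 3.42e-06), MAF by -1.30 (limma adjusted p = 0.00289) and FOSL1 by -0.29 (limma adjusted p = 0.00176). The 2 effects come from separate experiments, one with vehicle and one untreated, so the transgene and the experiment cannot be told apart in them.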

How the results depend on the processing

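Of 1060 recomputed member values over 50 results, 1035 kept direction and call and 25 did not. Of these, 9 changed otherwise than under the test against a fold of 1.5, and their cause was not tested. The other 16 changed under that test, which calls only changes beyond the fold. That test left 3 members called with saracatinib against vehicle, 4 with saracatinib against the empty vector and 1 in the difference of effects (from 7, 9 and 3). It left 36, 19, 24, 24 and 3 genes of the other lists (from 75, 61, 66, 64 and 42) and 1171, 488, 897, 801 and 99 of all genes (from 6292, 5381, 6248, 4369 and 2188), in the order VAV1, saracatinib, saracatinib against the empty vector, RAC1 P29S and the difference. Between saracatinib and vehicle, FOSL2 ranged from -0.089 to 0.12 and FOSB from -0.050 to 0.33 when 1 library was left out: FOSL2 was -0.021 without VAV1 vehicle library 1 and -0.089 without saracatinib library 3, and FOSB -0.050 without VAV1 vehicle library 3. FOSL1 against the empty vector was 0.027 under quantile normalization. Members called ranged from 10 to 10, 6 to 7, 9 to 9, 9 to 10 and 3 to 3 when 1 library was left out. Without division by length, FOSL2 held 7.66%, 21.7%, 26.3%, 7.74% and 13.2% of the FOS family and JUN 11.7%, 31.6%, 17.3%, 8.41% and 25.7% of the JUN family, in the order empty vector with vehicle, VAV1, saracatinib, untreated control and RAC1 P29S. With the union of exons as length, FOSL2 held 2.38% in the first. Replicate numbers left no shared pattern in the residuals of libraries from different groups. These correlated at -0.0547 to 0.0125 for the same number and at -0.0315 to 0.0491 for different numbers. Whether libraries were prepared in matched sets cannot be told from this. The fit with the replicate number as a block called 10, 7, 9, 9 and 3 members and changed none of their calls.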
